A study of Mus musculus with 26 samples.

Results

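The SLC25 genes encode the carrier family of the inner mitochondrial membrane. They were followed in RNA of the mouse left ventricle as the rows of the deposited count table whose symbol starts with Slc25a, without the carnitine and acylcarnitine carrier Slc25a20. The rule gave 39 of the 15249 genes of the table. The 26 libraries cross a pair of genotypes, and all mice are labelled as of the C57BL6 background: 6 libraries are wild type (wt), 7 are Mst-1 overexpressing (MstTg), 8 carry the Gal-3 knock out (Gal3Ko) and 5 carry both (Mst1Gal3). Mst-1 is a kinase of the Hippo pathway encoded by Stk4, and galectin-3 is a carbohydrate-binding protein encoded by Lgals3. The design text presents Mst-1 overexpression as modelling dilated cardiomyopathy, so the comparisons ask how the carriers stand in that heart and whether the knockout changes this. The labels name neither the promoter that drives Mst-1, nor age, nor whether each replicate is an animal of its own, and a p-value here covers the variation among these libraries, which may be technical in part.

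Each SLC25 carrier exchanges or imports a small set of solutes that the inner membrane would otherwise hold back, and most share a fold of repeated membrane-spanning helices. In the heart the adenine nucleotide and phosphate carriers feed ATP synthase. The aspartate-glutamate and oxoglutarate-malate carriers take part in moving reducing equivalents from the cytosol to the matrix. Other members bring in cofactors, iron, glutathione, amino acids and nucleotides for the matrix enzymes. The members were grouped by substrate, and below a level is given in CPM (counts scaled to a common library size, with edgeR's TMM factors) within a gene, or in RPKM (CPM per kilobase of exon) between genes. A change is a log2 fold change ± SE of edgeR's quasi-likelihood test, and a gene is called where its adjusted p, over all 15249 genes, was below 0.05.

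Library totals ran from 18580405 to 32663735 counts. Stk4 had 22011 to 31877 counts in MstTg and 19919 to 28364 in Mst1Gal3, against 454 to 692 in wt and 388 to 718 in Gal3Ko. Lgals3 stood at 1.64 CPM ± 0.495 (SD, n = 6) in wt, 55.2 ± 3.39 (n = 7) in MstTg, 2.14 ± 0.369 (n = 8) in Gal3Ko and 3.91 ± 1.04 (n = 5) in Mst1Gal3. It fell with the knockout among Mst-1 hearts (-3.81 ± 0.13, adjusted p = 8.13e-19). In the libraries labelled Gal3Ko, with 22 to 64 counts, it was not below wt, with 19 to 49 (0.41 ± 0.17, adjusted p = 0.619), and there the knockout rests on the label. Counts of the mitochondrial genome took 31.0% ± 2.36 of each wt library, 17.7% ± 2.79 in MstTg, 33.0% ± 3.64 in Gal3Ko and 18.7% ± 2.95 in Mst1Gal3. By exact permutation tests (two-sided, adjusted over 4 tests) this share differed between MstTg and wt (p = 0.00117, adjusted p = 0.00311) and between Mst1Gal3 and Gal3Ko (p = 0.00155, adjusted p = 0.00311). The 6 cardiomyocyte markers summed to 39450 to 45330 CPM in wt and 30990 to 41470 in MstTg, so the tissue of the labels held its defining genes. In 6 libraries (wt replicate 5, MstTg replicate 5, Gal3Ko replicates 4, 5 and 8, and Mst1Gal3 replicate 3) the 3 measured atrial genes together exceeded 30 CPM, up to 127 CPM.

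Before any comparison, a few promoter stretches are shown for members whose changes differ below, so that a letter pattern can be read beside them. They were taken from RefSeq windows of 250 bases before to 50 after a gene's start (GRCm38.p6), which matched 30 of the 39 members. The capitals mark the E-box CACGTG, a site of basic helix-loop-helix factors, or the core GCGCANGCG of nuclear respiratory factor NRF1, which in Slc25a3 lies on the opposite strand and so reads reversed. All 5 genes are on the minus strand and each stretch reads 5′ to 3′ along the gene.
Slc25a3, chr10:91124147-91124205: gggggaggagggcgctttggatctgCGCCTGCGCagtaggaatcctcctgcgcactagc
Slc25a13, chr6:6217268-6217323: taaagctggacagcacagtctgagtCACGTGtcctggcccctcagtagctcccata
Slc25a33, chr4:149774245-149774300: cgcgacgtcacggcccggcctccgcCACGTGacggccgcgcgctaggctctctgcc
Slc25a36, chr9:97111198-97111253: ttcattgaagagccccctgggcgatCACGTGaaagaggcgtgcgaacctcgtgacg
Slc25a1, chr16:17928428-17928469: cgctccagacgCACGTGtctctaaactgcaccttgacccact

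In the ventricle of wt mice the carrier pool was dominated by a few genes. Slc25a4, the adenine nucleotide translocase of heart and muscle (ANT1, ENSMUSG00000031633, chromosome 8, 46206797 to 46211284), had the highest level, 1089 RPKM ± 56.0 (SD, n = 6). Slc25a3, the phosphate carrier (154 RPKM ± 7.02), Slc25a11, the oxoglutarate and malate carrier (146.5 RPKM ± 6.08), and Slc25a5, the broadly expressed translocase ANT2 (80.8 RPKM ± 8.33), came next. Slc25a4 alone made up 63.1% ± 0.394 of the summed RPKM of the 39 genes, Slc25a3 8.93% ± 0.333, Slc25a11 8.49% ± 0.256 and Slc25a5 4.67% ± 0.343. These are shares of transcript signal per length of all annotated exons, and on that length the order of Slc25a3 and Slc25a11 lies close to their spread. The RPKM of Slc25a3 depends on the length used: it was 154 on all annotated exons and 531 on its principal transcript. Slc25a11 was at 182 on its principal transcript, so there the genes were far apart. The 5 highest genes kept their order on either length. The shares depend on the length as well and were not computed on principal transcripts.

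Below these stood Slc25a34, an orphan carrier with no settled substrate (57.9 RPKM ± 6.59). Slc25a13 (31.0 RPKM ± 3.52), Slc25a39 (25.7 RPKM ± 2.34) and Slc25a12 (24.6 RPKM ± 1.27) followed, the last pair within their spread of each other. Slc25a51 (13.7 RPKM ± 0.912), Slc25a46 (12.8 RPKM ± 0.511), Slc25a42 (10.4 RPKM ± 1.11) and Slc25a23 (6.99 RPKM ± 0.328) completed the 12 highest. At the other end were Slc25a31, known as the translocase of the testis, at 0.180 RPKM ± 0.0491 and Slc25a53, an orphan, at 0.223 RPKM ± 0.0441. Within wt the SD of a member's CPM was 4.0% to 27.2% of its mean, with a median of 10.2%. The steadiest were Slc25a46 (4.0%), Slc25a11 (4.15%) and Slc25a3 (4.55%), and the most variable Slc25a31 (27.2%) and Slc25a27 (25.9%).

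**Figure D1:**
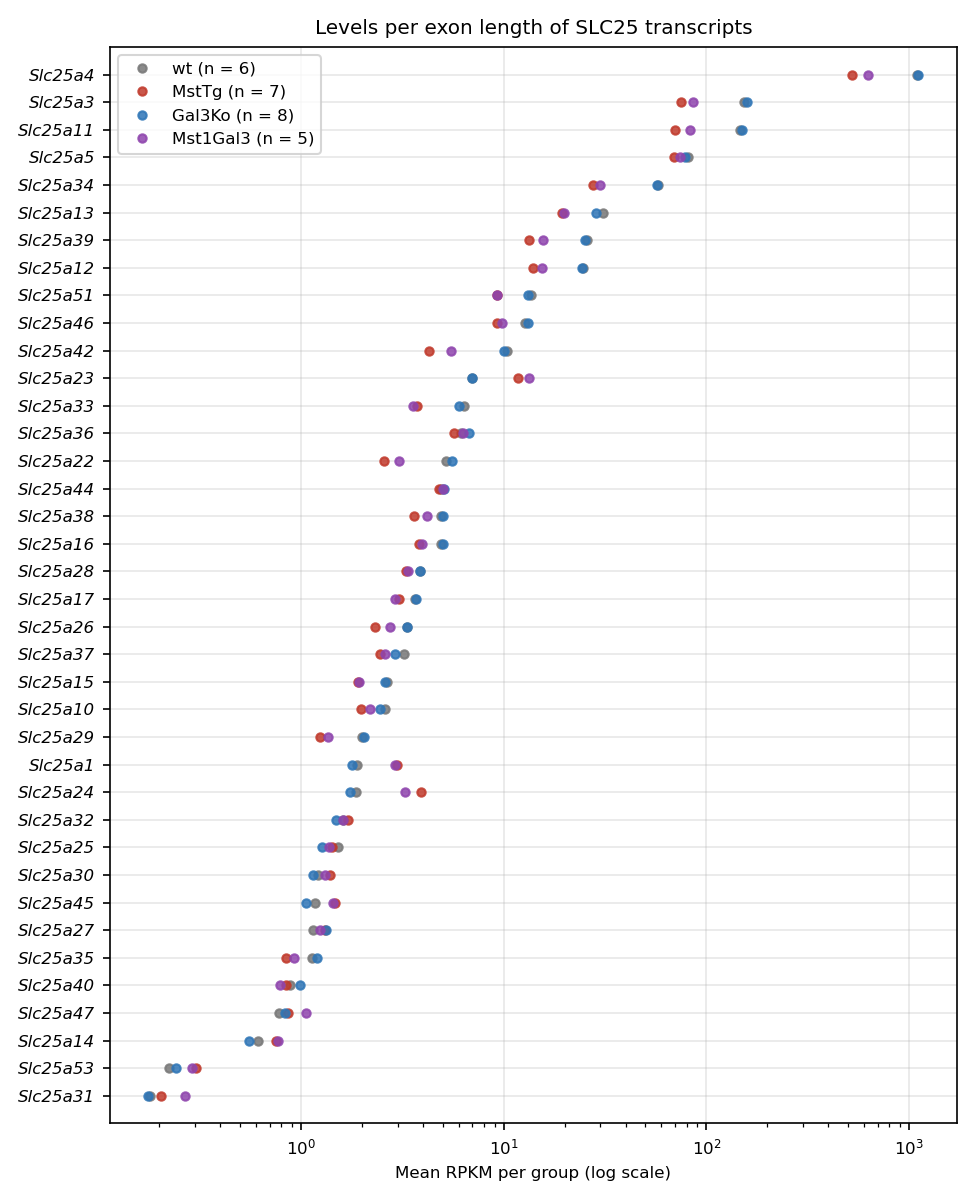
Mean level of the SLC25 genes, all but 1, per group, in RPKM on a log axis, ordered by the level in wt; each point is a group mean of 5 to 8 libraries. Slc25a4 lies near 1089 RPKM in wt, and the points of MstTg and Mst1Gal3 fall left of wt and Gal3Ko for most genes, and right of them for Slc25a23, Slc25a24 and Slc25a1.

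Mst-1 overexpression alone went with lower levels of most carriers. In MstTg against wt 24 of the 39 members fell and 5 rose, 29 called in all (74.4%). Of all genes 55.0% were called, 26.8% lower and 28.2% higher, so the share of members that fell, 61.5%, stood above the background and the share that rose, 12.8%, below it. The median change of the members was -0.39, beside 0.02 over all genes. Summed over the family, the libraries of wt averaged 4959 CPM ± 210 (SD, n = 6) and those of MstTg 2665 CPM ± 222 (n = 7). For 23 members the libraries of MstTg and wt did not overlap, 20 of them lower, while 32.2% of all genes did not overlap. When libraries were scaled by their totals instead of TMM, the median of all genes moved to 0.27 and the split of called members to 11 higher and 16 lower. The members' median was then -0.15, still 0.41 below that of all genes, and 21 of the 29 calls were kept. Those lost were of Slc25a5, Slc25a10, Slc25a16, Slc25a17, Slc25a28, Slc25a35, Slc25a37 and Slc25a38.

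In these bulk samples fewer cells of a type and less RNA per cell cannot be told apart. Other cell types moved with Mst-1 as well: 6 of 6 fibroblast markers rose, with summed levels of 614 to 811 CPM in wt and 2049 to 2526 in MstTg, and 5 of 6 endothelial markers fell, from 699 to 873 CPM to 520 to 616. Of the cardiomyocyte markers 5 fell and 1 (Actc1) rose. Macrophage markers summed to 106 to 185 CPM in wt and 120 to 145 in MstTg, with Cd68 higher (1.11 ± 0.14) and Cd163 lower (-0.85 ± 0.15). The smooth muscle and pericyte markers gave 664 to 893 CPM in wt and 554 to 711 in MstTg, with Cspg4 higher (1.91 ± 0.11) and Rgs5 lower (-1.04 ± 0.09), the red blood cell genes 34.0 to 335 and 17.6 to 184, and none of the 5 adipocyte markers was among the rows. The part of these cells in the carriers' changes was not tested.

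The adenine nucleotide and phosphate carriers fell together in Mst-1 hearts, but unequally. Slc25a4 ran from 2336 to 2696 CPM in wt (median 2577), and from 1059 to 1489 CPM in MstTg (median 1240). The highest MstTg library thus lay well under the lowest wt library, and the level fell 2.08-fold (-1.06 ± 0.08, adjusted p = 1.78e-13). Slc25a3 (ENSMUSG00000061904, chromosome 10, 91116574 to 91124059) ran from 818 to 930 CPM in wt (median 844) and from 378 to 466 CPM in MstTg (median 417). Here too the groups stood apart, 2.05-fold lower (-1.04 ± 0.06, adjusted p = 3.79e-15). Slc25a5 (ENSMUSG00000016319, chromosome X, 36795651 to 36798807) went from 116 to 151 CPM in wt (median 133) to 104 to 125 CPM in MstTg (median 113). Its groups overlapped and its fall was small (-0.23 ± 0.08, adjusted p = 0.0130), and under scaling by library totals the estimate was 0.01 with no call. Slc25a31 stayed at 0.291 to 0.565 CPM in wt and 0.326 to 0.523 CPM in MstTg and was not called (0.16 ± 0.28, adjusted p = 0.653).

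The makeup of the translocases therefore differed, and this ratio within a library does not depend on the scaling between libraries. The level of Slc25a5 relative to Slc25a4, in RPKM, was 0.0741 ± 0.00537 (SD, n = 6) in wt and 0.133 ± 0.0105 (n = 7) in MstTg, and it was 0.0708 ± 0.00863 (n = 8) in Gal3Ko and 0.119 ± 0.0119 (n = 5) in Mst1Gal3. All 14 libraries without Mst-1 overexpression lay at or under 0.0837 and all 12 with it at or above 0.104. The share of Slc25a4 in the summed RPKM was 57.5% ± 1.53 in MstTg and that of Slc25a5 7.62% ± 0.415. The translocases are close paralogs with processed copies in the genome, and how reads that map to several places were counted is not given in the sources used here.

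**Figure D2:**
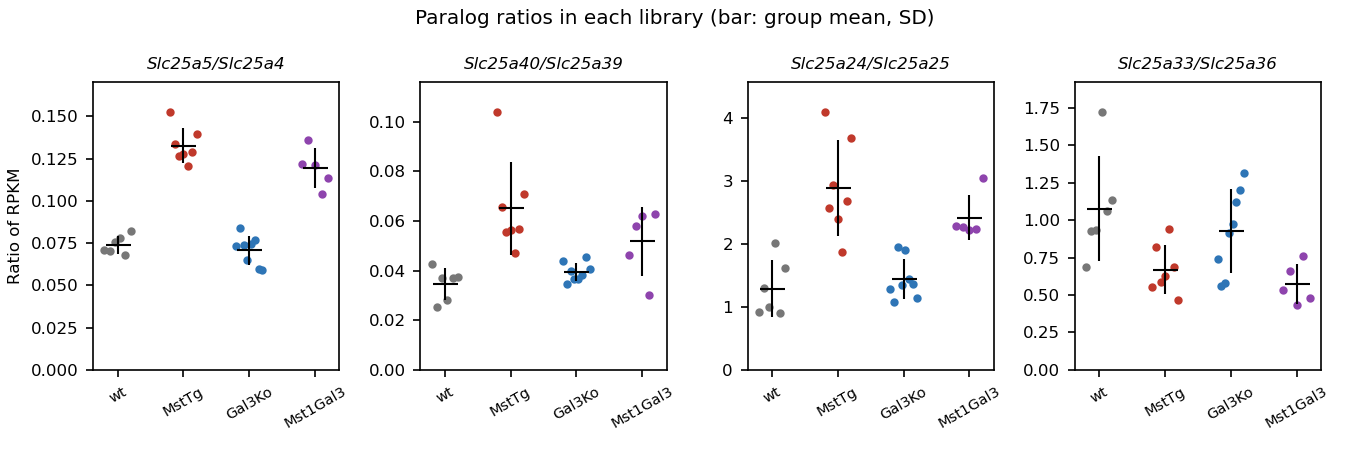
Ratio of the RPKM of a pair of carriers that share a substrate in each library, by group, with the mean and SD as bars. The ratio of Slc25a5 to Slc25a4 lies at 0.104 or above in every library with Mst-1 overexpression and at 0.0837 or under in every other library; the remaining pairs overlap between at least some of the groups.

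The carriers of aspartate, glutamate and malate fell as a class, 4 of 4 members. Of these Slc25a11, Slc25a12 and Slc25a13 serve the malate-aspartate shuttle, and Slc25a22 is a separate glutamate carrier. Slc25a11 (ENSMUSG00000014606, chromosome 11, 70644196 to 70647479), which exchanges oxoglutarate for malate, ran from 299 to 335 CPM in wt (median 308.5) and from 132 to 170.5 CPM in MstTg (median 146). The groups did not overlap, and the level was 2.09-fold lower (-1.07 ± 0.06, adjusted p = 7.83e-16). Of its exon bases 8.9% overlap Rnf167 on the opposite strand. Slc25a12 (ENSMUSG00000027010, chromosome 2, 71271063 to 71367749), the calcium-regulated aspartate and glutamate carrier aralar, ran from 167 to 195 CPM in wt (median 179) and from 90.1 to 114 CPM in MstTg (median 102). Its paralog Slc25a13 (citrin, ENSMUSG00000015112, chromosome 6, 6041218 to 6217173) ran from 102 to 134 CPM (median 118) and from 68.4 to 79.0 CPM (median 73.5). Neither gene's groups overlapped, with changes of -0.81 ± 0.06 (adjusted p = 1.51e-13) and -0.68 ± 0.08 (adjusted p = 3.66e-09). The ratio of Slc25a13 to Slc25a12 in RPKM was 1.26 ± 0.123 in wt and 1.39 ± 0.155 in MstTg, with overlapping libraries. Slc25a22 (ENSMUSG00000019082, chromosome 7, 141429744 to 141437892), which imports glutamate with a proton, ran from 23.6 to 41.0 CPM in wt (median 28.8) and from 11.3 to 17.7 CPM in MstTg (median 16.5). It was 2.0-fold lower with no overlap (-1.0 ± 0.14, adjusted p = 9.62e-07).

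The calcium-regulated ATP-Mg and phosphate carriers went the other way. These proteins carry calcium-binding hands and set the adenine nucleotide content of the matrix. Slc25a23 (ENSMUSG00000046329, chromosome 17, 57043711 to 57059863) ran from 35.0 to 39.2 CPM in wt (median 36.4) and from 54.8 to 72.1 CPM in MstTg (median 61.5), and rose 1.68-fold (0.74 ± 0.06, adjusted p = 1.22e-12). Slc25a24 (ENSMUSG00000040322, chromosome 3, 109123149 to 109168457) ran from 4.48 to 7.33 CPM in wt (median 6.86) and from 11.5 to 15 CPM in MstTg (median 13.4). It showed the largest rise among the members, 2.09-fold (1.06 ± 0.09, adjusted p = 1.24e-11), and for neither gene did the groups overlap. The third gene of the class, Slc25a25 (ENSMUSG00000026819, chromosome 2, 32414487 to 32451445), varied between libraries, with 8.36 to 15.3 CPM in wt (median 11.9) and 8.09 to 14.2 CPM in MstTg (median 10.5). It was not called (-0.10 ± 0.15, adjusted p = 0.593). The ratio of Slc25a24 to Slc25a25 in RPKM was 1.29 ± 0.448 in wt and 2.89 ± 0.761 in MstTg, and the libraries overlapped.

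The di- and tricarboxylate carriers split. Slc25a1 (ENSMUSG00000003528, chromosome 16, 17925223 to 17928219), which exports citrate, ran from 3.56 to 4.55 CPM in wt (median 4.25) and from 4.88 to 7.51 CPM in MstTg (median 6.39), and rose without overlap (0.66 ± 0.12, adjusted p = 3.37e-05). Slc25a10, the dicarboxylate and phosphate exchanger, fell from 8.98 CPM ± 0.533 to 6.84 CPM ± 0.337 (-0.39 ± 0.08, adjusted p = 0.000107), but scaled by library totals the change was -0.15 with no call.

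**Figure D3:**
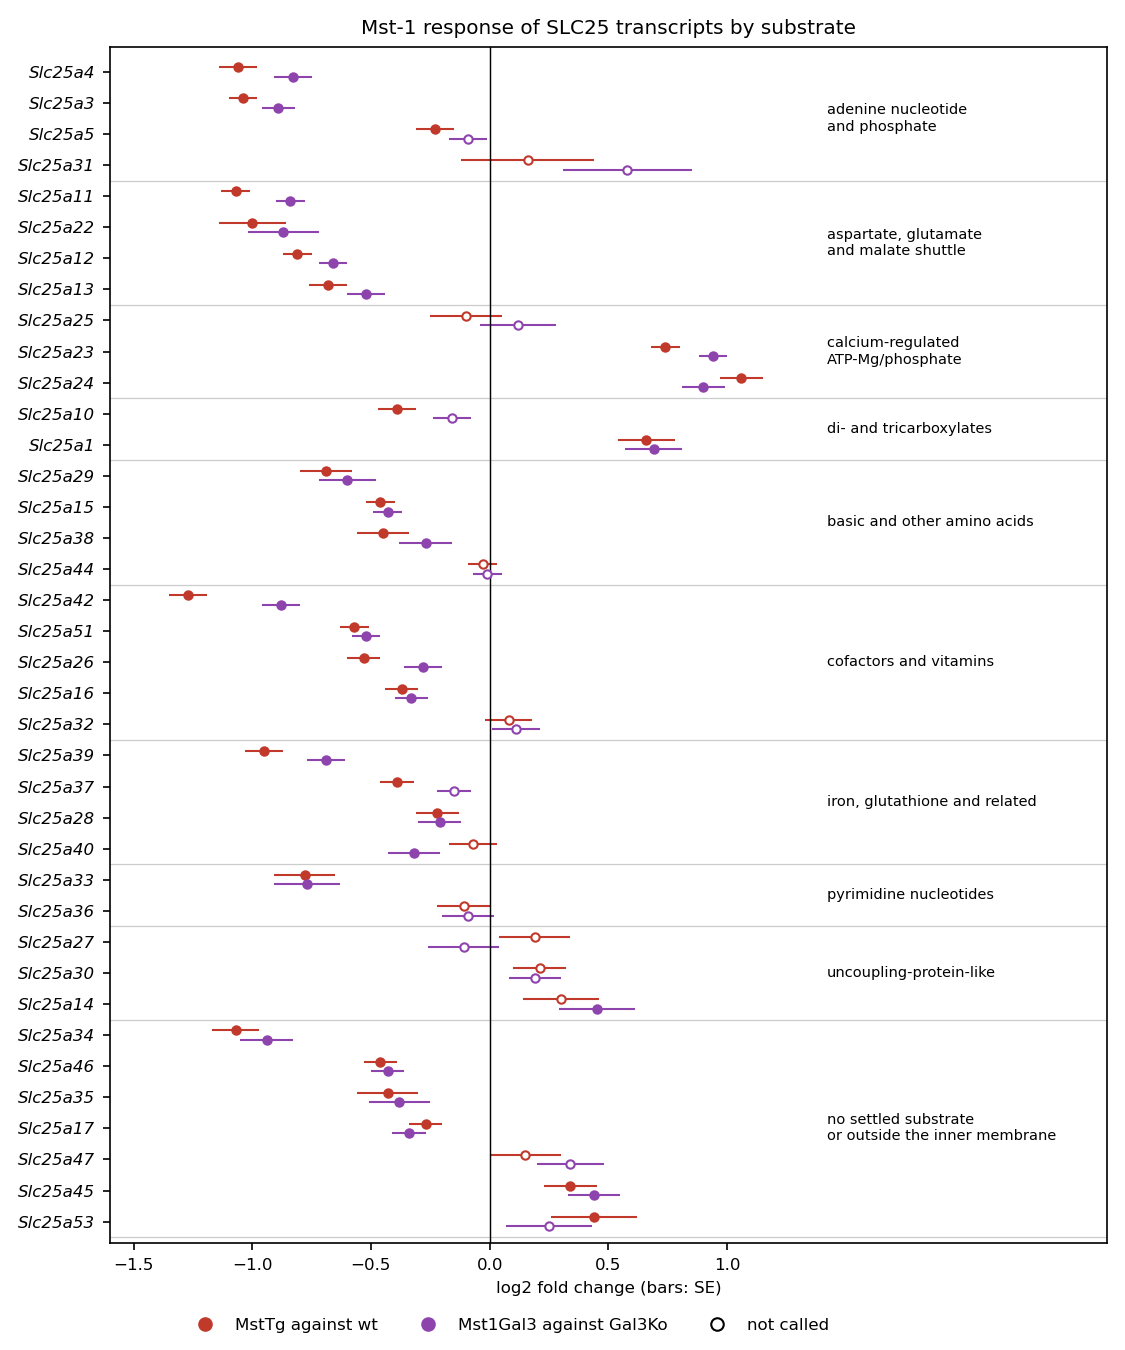
Log2 fold change with its SE (bars) of the members, all but 1, in MstTg against wt (red) and in Mst1Gal3 against Gal3Ko (violet), grouped by substrate; filled points have an adjusted p below 0.05 and open points do not. In MstTg against wt most called members lie left of 0, and 5 called members lie right of it, among them Slc25a23 and Slc25a24.

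The cofactor carriers named here fell, apart from Slc25a32. Slc25a42 (ENSMUSG00000002346, chromosome 8, 70184340 to 70212305), which brings coenzyme A into the matrix, ran from 57.5 to 74.0 CPM in wt (median 58.6) and from 21.1 to 29.4 CPM in MstTg (median 25.9). This was the largest fall among the 39 members, 2.42-fold (-1.27 ± 0.08, adjusted p = 2.22e-15), with a wide gap between the groups. Slc25a51 (ENSMUSG00000045973, chromosome 4, 45395923 to 45408766), the NAD carrier, ran from 68.1 to 82.6 CPM in wt (median 75.1) and from 47.1 to 54.4 CPM in MstTg (median 51.3), again without overlap (-0.57 ± 0.06, adjusted p = 2.85e-10). The carriers Slc25a26 for S-adenosylmethionine (-0.53 ± 0.07) and Slc25a16, tied to coenzyme A (-0.37 ± 0.07), also fell, the latter without a call when scaled by library totals (-0.12). Slc25a32, the carrier of folate and FAD, was not called (0.08 ± 0.10, adjusted p = 0.523).

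Among the iron and glutathione carriers Slc25a39 (ENSMUSG00000018677, chromosome 11, 102402985 to 102407946), which imports glutathione, ran from 62.8 to 80.7 CPM in wt (median 68.5) and from 28.5 to 41.3 CPM in MstTg (median 37.8). The groups stood apart (-0.95 ± 0.08, adjusted p = 2.63e-12). Its paralog Slc25a40 was at 7.38 CPM ± 0.842 in wt and 7.06 CPM ± 1.03 in MstTg and was not called (-0.07 ± 0.10, adjusted p = 0.605). Their ratio, Slc25a40 to Slc25a39 in RPKM, was 0.0347 ± 0.00654 in wt, with a highest library of 0.0428, and 0.0652 ± 0.0187 in MstTg, with a lowest library of 0.0471. The mitoferrins, which bring iron in for haem and iron-sulfur clusters, both fell, Slc25a37 without overlap (-0.39 ± 0.07, adjusted p = 6.94e-06) and Slc25a28 with overlapping groups (-0.22 ± 0.09, adjusted p = 0.0277). For Slc25a28 the call did not hold without MstTg replicate 1 or 7, without wt replicate 2, 3 or 5, or without the libraries of high atrial genes, and under scaling by totals the estimate was 0.02. Slc25a37 was then at -0.15 with no call.

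Of the amino acid carriers 3 of 4 fell, namely Slc25a29 for arginine and lysine (-0.69 ± 0.11, adjusted p = 3.65e-06), Slc25a15 for ornithine (-0.46 ± 0.06, adjusted p = 5.74e-08) and Slc25a38, which supplies glycine for haem synthesis (-0.45 ± 0.11, adjusted p = 0.000620). The call of Slc25a38 did not hold when scaled by library totals (-0.20). Slc25a44, the carrier of branched-chain amino acids, was at 17.6 CPM ± 1.31 in wt and 17.2 CPM ± 1.17 in MstTg (-0.03 ± 0.06, adjusted p = 0.671). The pyrimidine nucleotide carriers differed in their calls. Slc25a33 fell from 12 CPM ± 2.16 to 7.01 CPM ± 0.797 (-0.78 ± 0.13, adjusted p = 9.14e-06). Slc25a36 stood at 59.0 CPM ± 9.87 and 54.8 CPM ± 7.78 (-0.11 ± 0.11, adjusted p = 0.409). Their ratio, Slc25a33 to Slc25a36 in RPKM, was 1.08 ± 0.349 in wt and 0.669 ± 0.164 in MstTg, with overlap, and 14.9% of the exon bases of Slc25a33 overlap a gene model on the opposite strand. The uncoupling-protein-like members Slc25a14, Slc25a27 and Slc25a30 were not called, with changes of 0.30 ± 0.16, 0.19 ± 0.15 and 0.21 ± 0.11.

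The remaining 7 members have no settled substrate or act outside the inner membrane, and 4 fell and 2 rose. Slc25a34 (ENSMUSG00000040740, chromosome 4, 141618824 to 141623821) ran from 128 to 176 CPM in wt (median 159) and from 60.3 to 89.3 CPM in MstTg (median 72.9), a fall without overlap (-1.07 ± 0.10, adjusted p = 1.88e-10). Slc25a46 (ENSMUSG00000024259, chromosome 18, 31556111 to 31609911), an outer membrane protein of mitochondrial dynamics, ran from 66.2 to 74.3 CPM in wt (median 68.8) and from 45.3 to 56.2 CPM in MstTg (median 49.9), also apart (-0.46 ± 0.07, adjusted p = 4.67e-07). The peroxisomal carrier Slc25a17 fell less (-0.27 ± 0.07, adjusted p = 0.00192), as did Slc25a35 (-0.43 ± 0.13, adjusted p = 0.00453), of whose exon bases 31.3% overlap Rangrf on the opposite strand. Scaled by library totals they were at -0.02 and -0.18 with no call. Slc25a45 (ENSMUSG00000024818, chromosome 19, 5877808 to 5885878) ran from 2.61 to 3.87 CPM in wt (median 3.27) and from 3.54 to 4.50 CPM in MstTg (median 4.19), and rose with overlap (0.34 ± 0.11, adjusted p = 0.00658). Slc25a53 (ENSMUSG00000044348, chromosome X, 136981116 to 137038302) ran from 1.28 to 2.15 CPM in wt (median 1.85) and from 1.78 to 3.03 CPM in MstTg (median 2.32). Its rise was small and overlapping (0.44 ± 0.18, adjusted p = 0.0361), and the call did not hold without MstTg replicate 1, 6 or 7 or without wt replicate 1, 2 or 6. Slc25a47 was not called (0.15 ± 0.15, adjusted p = 0.393).

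**Figure D4:**
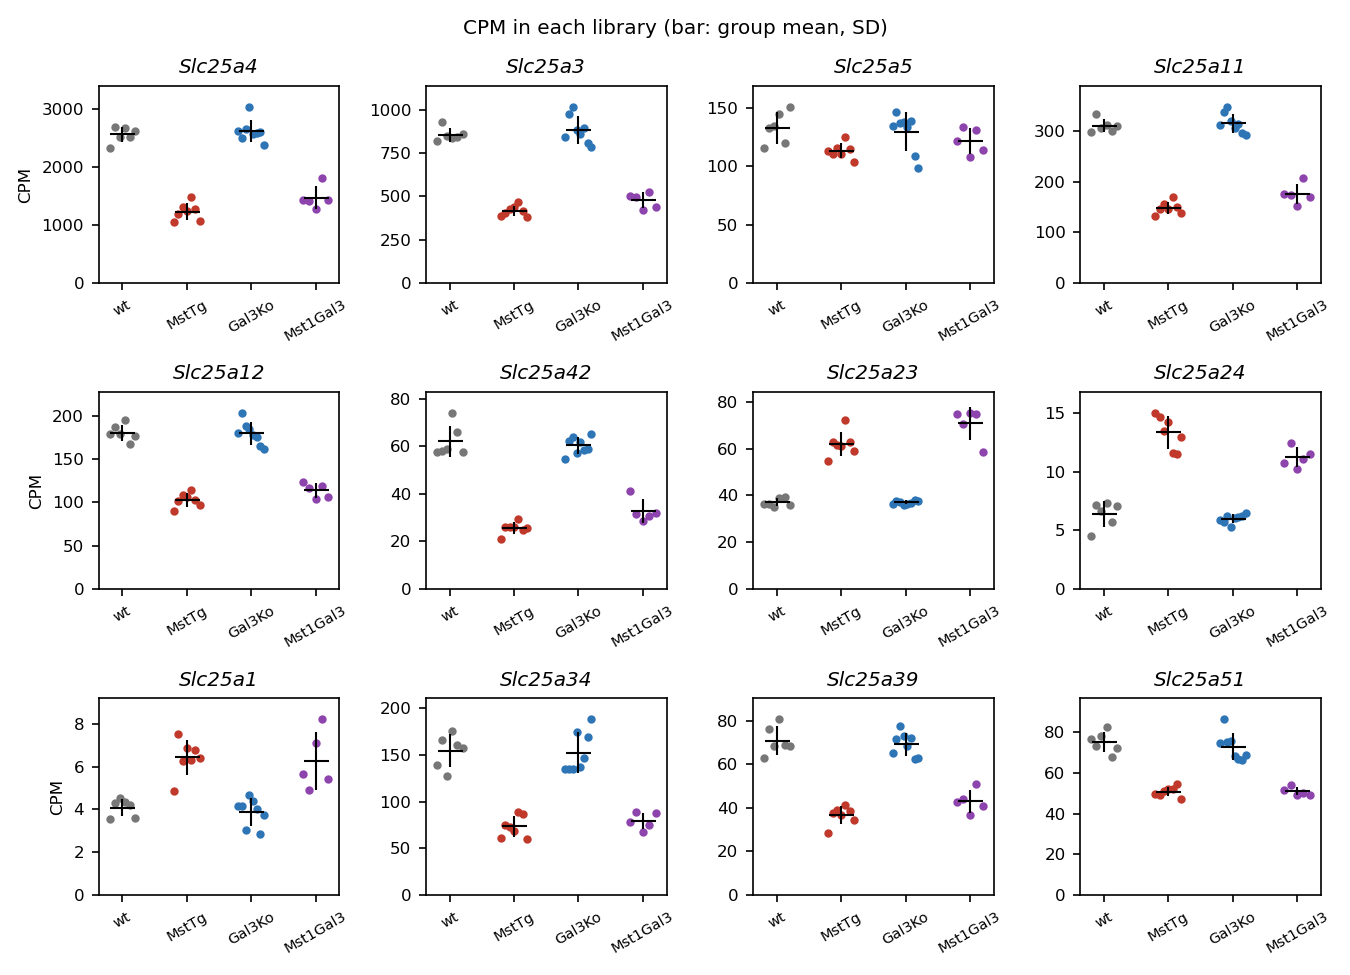
CPM of 12 members in each of the 26 libraries, by group, with the group mean and SD as bars; every axis starts at 0. Slc25a4, Slc25a3, Slc25a11, Slc25a12, Slc25a42, Slc25a34, Slc25a39 and Slc25a51 lie lower in every MstTg library than in any wt library, Slc25a23, Slc25a24 and Slc25a1 lie higher, and Slc25a5 overlaps.

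Enzymes that use what the carriers bring in were described from lists by substrate, chosen like the members with results of these data known. In MstTg against wt 26.8% of all genes were called lower and 28.2% higher, the background of the list counts for this comparison. Of 18 genes of ATP synthase, mitochondrial creatine kinase and cyclophilin D 18 fell there (median -0.90). Among them Atp5o was at -1.06 ± 0.05 (adjusted p = 6.72e-17) and Atp5g3 at -1.20 ± 0.06 (adjusted p = 7.04e-17). All 7 enzymes of the malate-aspartate and glycerophosphate shuttles fell (median -0.74), with Got1, the cytosolic aspartate aminotransferase, at -1.12 ± 0.06 (adjusted p = 3.32e-16) and Mdh2, the mitochondrial malate dehydrogenase, at -0.99 ± 0.07 (adjusted p = 4.88e-14). All 7 branched-chain amino acid enzymes fell (median -1.32), and the smallest p-values were those of the phosphatase Ppm1k (-1.41 ± 0.07, adjusted p = 9.83e-18) and the dehydrogenase subunit Bckdhb (-1.26 ± 0.06, adjusted p = 1.64e-17), whereas their carrier Slc25a44 was not called. Of 16 enzymes of coenzyme A, NAD, thiamine and S-adenosylmethionine 11 fell and 2 rose (median -0.39). Pank1, a pantothenate kinase that starts coenzyme A synthesis, was at -1.64 ± 0.06 (adjusted p = 7.37e-21), and Nadk2, the mitochondrial NAD kinase, at -1.36 ± 0.06 (adjusted p = 2.00e-19).

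Of 21 iron-sulfur cluster and haem enzymes 16 fell and 0 rose (median -0.61), with Isca1 at -0.85 ± 0.06 (adjusted p = 4.99e-14) and Alad at -1.24 ± 0.09 (adjusted p = 1.52e-13). Of 9 users of citrate and dicarboxylates 6 fell and 1 rose (median -0.56), with Me3 at -1.03 ± 0.05 (adjusted p = 5.83e-17) and Idh2 at -1.33 ± 0.08 (adjusted p = 3.45e-15). The lists for glutamate, proline and ornithine (10 genes, 4 higher and 4 lower, median 0.06) and for glutathione (10 genes, 3 higher and 5 lower, median -0.13) were mixed. Beside them, 26.8% of all genes were called lower and 28.2% higher. The glutathione list also holds genes of the thioredoxin system, namely Prdx3, Txn2 (-0.58 ± 0.06) and Txnrd2 (-0.55 ± 0.07). These were all lower, so its count of falls is not one of glutathione users alone. In the glutamate, proline and ornithine list Oat was at -1.02 ± 0.05 (adjusted p = 1.81e-17) and Aldh4a1 at -1.14 ± 0.06 (adjusted p = 5.23e-16). In the glutathione list Prdx3 was at -0.92 ± 0.06 (adjusted p = 1.27e-14) and Gpx1 at 1.15 ± 0.11 (adjusted p = 5.40e-10). Of 11 folate and glycine enzymes 6 fell and 2 rose (median -0.24), and of 8 mitochondrial nucleotide enzymes 4 fell and 2 rose (median -0.27). Named from these by the smallest p, Aldh1l2 was at -1.62 ± 0.10 (adjusted p = 1.37e-14), Shmt1 at -1.16 ± 0.15 (adjusted p = 4.64e-08), Tfam at -0.53 ± 0.07 (adjusted p = 9.06e-08) and Dguok at -0.52 ± 0.07 (adjusted p = 1.09e-07).

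Of the 11 genes that import carriers into the membrane 7 fell and 0 rose (median -0.34), with the chaperone Timm8b at -0.69 ± 0.08 (adjusted p = 2.01e-09) and the receptor Tomm70a at -0.46 ± 0.06 (adjusted p = 1.66e-07). All 3 outer membrane channels fell (median -0.60), Vdac1 at -0.71 ± 0.06 (adjusted p = 1.78e-12) and Vdac3 at -0.60 ± 0.05 (adjusted p = 5.34e-11). Among 10 genes of the pyruvate carrier and calcium uniporter 4 fell and 2 rose (median -0.04), beside 26.8% of all genes lower and 28.2% higher. Mpc2 was at -1.26 ± 0.07 (adjusted p = 7.07e-17) and Mcur1 at -0.64 ± 0.06 (adjusted p = 6.72e-11). SLC25-family genes under other symbols split 2 and 2: Mtch2 (-0.45 ± 0.05, adjusted p = 5.46e-09) and Ucp3 (-1.14 ± 0.35, adjusted p = 0.00750) fell, and Mtch1 (0.35 ± 0.08, adjusted p = 0.000233) and Ucp2 rose.

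In Mst1Gal3 against Gal3Ko, where 25.6% of all genes were called lower, 16 of 18 ADP and phosphate users were lower (median -0.79). So were 7 of 7 shuttle enzymes (median -0.59) and 7 of 7 branched-chain amino acid enzymes (median -1.16). Other lists were mixed there. The glutamate, proline and ornithine list had 4 higher and 4 lower (median 0.19), and the glutathione list 3 higher and 4 lower (median -0.06). The pyruvate carrier and calcium uniporter list had 3 higher and 4 lower (median -0.10), and 5 of 11 import genes were lower (median -0.13). In Gal3Ko against wt 0 genes of any list were called, where 0.354% of all genes were. In Mst1Gal3 against MstTg, where 2.54% of all genes were called higher and 2.35% lower, 3 of 16 coenzyme A, NAD, thiamine and S-adenosylmethionine enzymes were higher, namely Pank1 (0.22 ± 0.06, adjusted p = 0.0375), Nadk2 (0.24 ± 0.06, adjusted p = 0.0139) and Nmnat1 (0.29 ± 0.08, adjusted p = 0.0354). The NAD carrier Slc25a51 was at 0.00 there (adjusted p = 0.991). Of the 7 shuttle enzymes 1 was higher, Got1 (0.25 ± 0.07, adjusted p = 0.0217). Also higher were Atp5f1, Bckdhb, Aldh4a1, Prdx3, Txn2, Alad, Isca2 and Mpc2, by 0.19 to 0.32, and lower were Cmpk2 (-0.91 ± 0.14) and Mthfd1l (-0.95 ± 0.27). For the interaction, defined further on, 0.656% of all genes were called. Of the list genes Aldh4a1 was called higher there (0.38 ± 0.09, adjusted p = 0.0442) and Cmpk2 lower (-0.98 ± 0.19, adjusted p = 0.0104).

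The Mst-1 response was measured a second time in the knockout background, with other libraries on both sides. In Mst1Gal3 against Gal3Ko 27 members were called, 22 lower and 5 higher, where 52.5% of all genes were called (25.6% lower and 26.9% higher). The members' median was -0.28, beside 0.01 over all genes, and 20 members did not overlap between the groups, beside 31.1% of all genes. Scaled by library totals the split was 11 higher and 14 lower, with a median of all genes of 0.24 and of the members of -0.05, and 19 of the 27 calls were kept. Calls of Slc25a16 (-0.10), Slc25a17 (-0.11), Slc25a26 (-0.05), Slc25a28 (0.03), Slc25a35 (-0.14), Slc25a38 (-0.03) and Slc25a40 (-0.09) were among those lost. Between both Mst-1 comparisons 21 members fell in both, 4 rose in both (Slc25a1, Slc25a23, Slc25a24 and Slc25a45), 8 were called in neither and 0 had opposite calls. The estimated fall was smaller in the knockout background for 20 of the 21. The same count over all genes that fell in both was not made, so this cannot be read as a trait of the carriers. The test of each such difference is the interaction, given further on and called for 0 of the 39 members. Fibroblast markers summed to 1799 to 2144 CPM in Mst1Gal3 and 620 to 729 in Gal3Ko, and endothelial markers to 531 to 571 and 708 to 874, with 6 of 6 called higher and 5 of 6 called lower. Their part in these values was not tested.

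In the 5 Mst1Gal3 libraries Slc25a4 stood at 1425, 1408, 1269, 1808 and 1439 CPM, against 2378 to 3033 CPM in Gal3Ko (median 2594). All 5 lay under every Gal3Ko library (-0.83 ± 0.08, adjusted p = 1.67e-10). Slc25a3 had 504, 497, 420, 527 and 441 CPM, against 785 to 1015 CPM in Gal3Ko (median 871), likewise apart (-0.89 ± 0.07, adjusted p = 7.73e-13). Slc25a34 showed the largest fall of this comparison, with 78.2, 88.6, 67.3, 75.1 and 87.7 CPM against 135 to 189 CPM (-0.94 ± 0.11, adjusted p = 8.21e-09). Slc25a23 had 74.9, 70.7, 75.2, 74.9 and 58.5 CPM against 35.8 to 38.2 CPM (median 37.0) and rose 1.91-fold (0.94 ± 0.06, adjusted p = 5.57e-15). Slc25a5, with 121.5, 134, 108, 131.5 and 114 CPM against 98.4 to 147 CPM (median 136), was not called here (-0.09 ± 0.08, adjusted p = 0.367).

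The carriers of aspartate, glutamate and malate were again lower in all 5 Mst1Gal3 libraries than in any Gal3Ko library. Slc25a11 had 177, 175, 152, 208 and 170 CPM against 294 to 348 CPM (median 314), a change of -0.84 ± 0.06 (adjusted p = 9.59e-13). Slc25a12 had 123.5, 117, 104, 119 and 106 CPM against 162 to 203 CPM (median 179), and Slc25a13 had 78.8, 81.4, 68.6, 74.0 and 74.6 CPM against 91.3 to 130 CPM (median 107). Their changes were -0.66 ± 0.06 (adjusted p = 7.12e-11) and -0.52 ± 0.08 (adjusted p = 1.58e-06). Slc25a22 had 22.1, 22.4, 15.1, 14.4 and 17.4 CPM against 22.9 to 45.1 CPM (median 33.1), so its highest library lay just under the lowest Gal3Ko library (-0.87 ± 0.15, adjusted p = 1.60e-05).

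The coenzyme A carrier Slc25a42 had 41.4, 31.5, 28.4, 30.6 and 32.2 CPM against 54.8 to 65.4 CPM in Gal3Ko (median 60.5), a change of -0.88 ± 0.08 (adjusted p = 4.93e-11). The NAD carrier Slc25a51 had 51.8, 53.9, 49.2, 50.4 and 49.2 CPM against 66.5 to 86.5 CPM (median 71.8), and the glutathione carrier Slc25a39 had 42.8, 44.0, 36.6, 51.0 and 40.6 CPM against 62.6 to 77.4 CPM (median 70.0). Both stood apart between the groups, with changes of -0.52 ± 0.06 (adjusted p = 5.29e-09) and -0.69 ± 0.08 (adjusted p = 1.02e-08). Slc25a46 had 52.7, 58.0, 50.1, 47.7 and 57.0 CPM against 62.4 to 83.5 CPM (median 71.0) and fell less (-0.43 ± 0.07, adjusted p = 3.67e-06).

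The carriers that rose with Mst-1 outside the knockout were mostly higher inside it too. Slc25a24 had 10.8, 12.5, 10.2, 11.1 and 11.5 CPM against 5.31 to 6.52 CPM (median 6.10), a change of 0.90 ± 0.09 (adjusted p = 5.95e-10), and Slc25a1 had 5.67, 4.90, 7.12, 8.22 and 5.43 CPM against 2.83 to 4.67 CPM (median 4.08), a change of 0.69 ± 0.12 (adjusted p = 2.06e-05). Slc25a45 had 3.57, 3.62, 3.82, 4.0 and 4.75 CPM against 2.53 to 3.36 CPM (median 2.97), here without overlap (0.44 ± 0.11, adjusted p = 0.000884). Slc25a53 had 2.38, 2.43, 2.16, 2.40 and 2.2 CPM within the Gal3Ko range of 0.934 to 2.78 CPM (median 1.91) and was not called (0.25 ± 0.18, adjusted p = 0.236). Slc25a25 (0.12), Slc25a36 (-0.09) and Slc25a44 (-0.01) were not called in this background either.

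Calls that stood in one of the backgrounds and not in the other were few. Slc25a5, Slc25a10 and Slc25a37 fell and Slc25a53 rose in MstTg against wt without a call in Mst1Gal3 against Gal3Ko. Slc25a40 fell (-0.32 ± 0.11, adjusted p = 0.0130) and Slc25a14 rose (0.45 ± 0.16, adjusted p = 0.0166) in the latter without a call in the former. None of these 6 genes was called for the difference itself, the interaction. The calls of Slc25a38 (-0.27 ± 0.11, adjusted p = 0.0383) and Slc25a28 (-0.21 ± 0.09, adjusted p = 0.0486) were near the threshold and did not hold without any of several libraries, and that of Slc25a40 did not hold without Mst1Gal3 replicate 4 (-0.22) nor that of Slc25a35 without Mst1Gal3 replicate 5 (-0.32). The rise of Slc25a14 did not hold without the libraries of high atrial genes (0.39, adjusted p = 0.0983).

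The galectin-3 knockout alone moved no carrier past the threshold. In Gal3Ko against wt 0 of 39 members were called, where 0.354% of all genes were, and limma-voom and DESeq2 called 0 as well. The members' median was 0.00 and their changes ran from -0.27 to 0.21. In 0 members did the libraries of Gal3Ko and wt stand apart, beside 0.289% of all genes. Without adjustment 1 of the 39 members had a p under 0.05, beside 1015 of the 15249 genes. It was Slc25a37 (mitoferrin-1, ENSMUSG00000034248, chromosome 14, 69241848 to 69285112), with 17.9 to 20.6 CPM in wt (median 19.3) and 15 to 21.2 CPM in Gal3Ko (median 17.0). Its groups overlapped (-0.15 ± 0.06, adjusted p = 0.640 by edgeR). The gene lies on the chromosome of Lgals3, 21.9 Mb from it, as does Slc25a30 at 28.4 Mb (-0.08 ± 0.11). The next smallest p was that of Slc25a25, with 7.25 to 13 CPM in Gal3Ko (-0.27 ± 0.15, adjusted p = 0.809 by edgeR). With an SE of 0.05 to 0.28 per member, the precision differed between carriers and was lowest for Slc25a31 (0.28) and Slc25a53 (0.18). Slc25a4 differed by 0.03 ± 0.07 and Slc25a3 by 0.05 ± 0.06.

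Between the Mst-1 groups with and without the knockout 2 of 39 members were called, both higher in Mst1Gal3, where 4.89% of all genes were called, 2.54% higher and 2.35% lower. Slc25a42 had 41.4, 31.5, 28.4, 30.6 and 32.2 CPM in Mst1Gal3 and 21.1 to 29.4 CPM in MstTg (0.35 ± 0.08, adjusted p = 0.00656). Slc25a11 had 152 to 208 CPM in Mst1Gal3 (median 175) and 132 to 170.5 CPM in MstTg (0.25 ± 0.06, adjusted p = 0.0182). In both genes the groups overlapped, and the levels in Mst1Gal3 stayed below those of every wt and Gal3Ko library. Both calls depended on 1 library and on the scaling: without Mst1Gal3 replicate 1 Slc25a42 was at 0.26 (adjusted p = 0.0547), and without Mst1Gal3 replicate 4 Slc25a11 was at 0.18 (adjusted p = 0.108). Scaled by library totals they were at 0.28 (adjusted p = 0.0769) and 0.18 (adjusted p = 0.134). The call of Slc25a11 was also lost with the replicate block (0.23, adjusted p = 0.0551) and in the fit of the 2 groups alone (0.24, adjusted p = 0.0746). Depending on the library left out 1 to 7 members were called, 7 without MstTg replicate 5, 5 without Mst1Gal3 replicate 3, 4 without Mst1Gal3 replicate 5 and 1 without Mst1Gal3 replicate 1 or 4. Without the 6 libraries of high atrial genes, which include the first pair of these, 7 members were called. No member's libraries were apart between these groups, beside 3.31% of all genes.

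The estimates of the members nonetheless leaned upward with TMM. Their median was 0.09 in Mst1Gal3 against MstTg, beside 0.02 over all genes, and 28 of 39 lay above 0 (71.8%, beside 54.5% of all genes). Scaled by library totals the medians were 0.01 and -0.06, and their distance was 0.07 with either scaling. With TMM Slc25a4 was at 0.26 ± 0.08 (adjusted p = 0.0567) and Slc25a3 at 0.20 ± 0.07 (adjusted p = 0.0841), neither called. The cardiomyocyte markers summed to 37500 to 47380 CPM in Mst1Gal3 and 30990 to 41470 in MstTg, with 2 of 6 (Myh6 and Ryr2) called higher, and their part in the carriers' values was not tested. The summed level of the family was 3059 CPM ± 280 (SD, n = 5) in Mst1Gal3 and 5035 ± 263 (n = 8) in Gal3Ko.

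The interaction, which is the Mst-1 response in the knockout background minus that outside it, was called for 0 of 39 members, where 0.656% of all genes were called, 0.289% higher and 0.367% lower. It shares its libraries with the comparisons above. The members' median was 0.12, beside 0.01 over all genes, and 33 of 39 lay above 0 (84.6%, beside 52.5% of all genes). An unadjusted p under 0.05 by edgeR was found for 7 of the 39 members, beside 1857 of the 15249 genes. Among the members the smallest were those of Slc25a42 (0.39 ± 0.11, adjusted p = 0.0899 by edgeR) and Slc25a37 (0.24 ± 0.10, adjusted p = 0.277 by edgeR). DESeq2 called Slc25a42 (0.39, adjusted p = 0.0432) and edgeR did so without Mst1Gal3 replicate 3 (adjusted p = 0.0486) or MstTg replicate 5 (adjusted p = 0.0412), while limma-voom called 0.

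**Figure D5:**
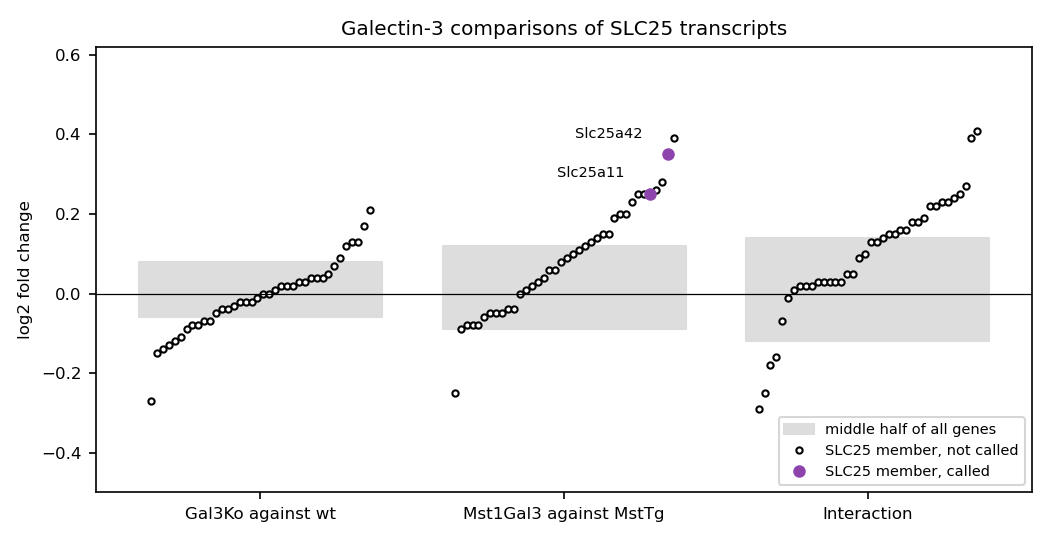
Log2 fold changes of the members, all but 1, sorted, in Gal3Ko against wt, in Mst1Gal3 against MstTg and for the interaction; filled points have an adjusted p below 0.05, and the grey band spans the 25th to 75th percentile of all 15249 genes. Points centre on 0 for the knockout alone, lie mostly above 0 in the other columns, and 2 are filled, Slc25a42 and Slc25a11.

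Beside these changes the promoter windows shown above held the following letters, searched on both strands. The E-box CACGTG was found in the windows of 7 members: Slc25a1, which rose with Mst-1, Slc25a13, Slc25a15 and Slc25a33, which fell, and Slc25a14, Slc25a31 and Slc25a36, which were not called in MstTg against wt. Whether the letters relate to the changes was not tested. Both pyrimidine carriers hold the E-box. Of them Slc25a33 was called and Slc25a36 was not, a difference between the genes that was not itself tested. The E-box lies at positions -8 to -3 from the start in Slc25a33 and -187 to -182 in Slc25a36. The NRF1 core GCGCANGCG was found in Slc25a3 (positions -213 to -205) and Slc25a31. The ERR element TNAAGGTCA and the ATF4 element TGATGNAAT were found in 0 of the 30 members with a window (39 windows). This says only that these letters are not in these stretches. No matches of different motifs overlapped. Over 27025 RefSeq genes the shares with a match were 8.09% for the E-box, 7.03% for the NRF1 core, 1.43% for the ERR element and 1.08% for the ATF4 element. Over the 10500 of them in the count table they were 11.6%, 14.7%, 0.933% and 0.505%, in the same order. No share over the members is set against these, since 9 of the 39 had no window, fewer than 80% being covered.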

How the data were processed

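Per the submitters' processing notes the reads were handled with bcl2fastq 2.19.1.403, STAR and featureCounts on GRCm38; for the last pair no version is known, and the strand setting and the treatment of reads that map to several places are not stated either. Per the labels, libraries were made from rRNA-depleted total RNA with a directional kit. The authors deposited raw read counts per gene, with no normalization, for 15249 genes and 26 libraries. The lowest mean count of any gene was 10.0, so rarer genes were not analysed here. A further 8 SLC25 symbols were not among the rows, and the reason was not tested. All 26 columns matched a sample by its title, and no replicate pair was alike within sampling noise (lowest chi-square per degree of freedom 4.97).

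From the counts, edgeR 4.0.16 (R 4.3.3) was run with TMM, filterByExpr (0 genes removed), estimateDisp, glmQLFit (robust) and a two-sided glmQLFTest; p-values were adjusted by Benjamini-Hochberg across the whole table, with a threshold of 0.05 and all 26 libraries in 1 fit of group means (22 residual degrees of freedom, common biological coefficient of variation 0.114). The SE is the log2 fold change divided by the square root of F. The scripts were tested on simulated counts. CPM use TMM-scaled library sizes, and RPKM divide them by the union of exons of GENCODE M21, where 15200 gene identifiers matched and whose positions are printed. Precision covers counting error and replicate spread only; 1 count in the smallest library is 0.0538 CPM.

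Alternatives were DESeq2 1.42.0, limma-voom (limma 3.58.1) with and without quality weights, scaling by library totals or without the 16 mitochondrial genome genes, no filter, at least 1 CPM in 5 libraries, a replicate block, the compared groups alone, leaving out each library, and leaving out libraries whose atrial genes exceed 30 CPM.

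Values of 1 member are not reported here, though it is in the counts, medians and sums. The members, substrate classes and lists were chosen with earlier results of these data known. Full values are given for the 12 highest RPKM in wt, the 8 largest falls and all 5 rises in MstTg against wt, every member called in a galectin-3 comparison, and the 2 smallest p-values where none was; enzyme lists name the 2 smallest p-values.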

Additional observations from a re-analysis of the deposited data

Results flagged for a closer look

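In 10 of 156 groups of 5 to 8 libraries, each for a different member, 1 library stood apart from the others of its group by Dixon's criterion at the 95% level; chance gives about 1 in 20. No cause was tested for any of them. Among the abundant carriers Slc25a4 had 3033 CPM in Gal3Ko replicate 4 (the others 2378 to 2649) and Slc25a3 930 CPM in wt replicate 2 (the others 818 to 857.5). Slc25a42 had 41.4 CPM in Mst1Gal3 replicate 1 (the others 28.4 to 32.2), which is the library its call against MstTg turned on. Slc25a23 had 58.5 CPM in Mst1Gal3 replicate 5 (the others 70.7 to 75.2), still above every Gal3Ko library. Gal3Ko replicate 2 was high for both Slc25a36, at 88.0 CPM (the others 55.4 to 69.6), and Slc25a51, at 86.5 CPM (the others 66.5 to 75.9). MstTg replicate 1 was high for Slc25a27, at 7.27 CPM (the others 4.52 to 5.50), and low for Slc25a38, at 5.69 CPM (the others 9.39 to 12.1). Slc25a15 was low in MstTg replicate 6, at 9.66 CPM (the others 10.6 to 11.3), and Slc25a26 in wt replicate 3, at 13.9 CPM (the others 16.0 to 16.8).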

How the results depend on the processing

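Running without a filter could change nothing, since filterByExpr removed 0 genes. The counts of called members in the Mst-1 comparisons stayed within 1.5 times of 29 and 27 under every other alternative run, at 27 to 29 and 24 to 28 when 1 library was left out. In Gal3Ko against wt 0 members were called under every alternative. In Mst1Gal3 against MstTg the count of 2 became 5 under DESeq2, 4 with quality weights, 0 with library totals, 1 with the replicate block, 1 in the fit of the compared groups alone, 7 without the libraries of high atrial genes, and 1 to 7 with 1 library left out. The interaction count of 0 became 1 under DESeq2 and 0 to 1 with 1 library left out. Scaling by library totals turned the estimates of Slc25a5 (0.01) and Slc25a28 (0.02) in MstTg against wt and of Slc25a28 (0.03) in Mst1Gal3 against Gal3Ko above 0, none called. It kept 21 of the 29 and 19 of the 27 calls, and the calls higher went from 5 to 11 in each. Over the called members 1022 of 1044 values in MstTg against wt and 932 of 972 in Mst1Gal3 against Gal3Ko kept direction and call. These counts include the run without a filter and runs that left out a library outside the compared groups. Such runs could change nothing or little, so the counts are no measure of robustness. The cause of the changes in the other values was not tested. The titles give replicate numbers and do not say whether anything links libraries of the same number. Over 34 same-numbered pairs the correlation of deviations ran from -0.28 to 0.234 (median 0.007, beside 0 for other pairs, and 11 over 0.1). Of the libraries 7 correlated best with their own number, and no chance value for these counts was computed. With the replicate block 28, 0, 1, 27 and 0 members were called in the 5 comparisons in the order of the text (MstTg and Gal3Ko against wt, Mst1Gal3 against MstTg and Gal3Ko, interaction). Depth limits the low members most: Slc25a31 and Slc25a53 have SEs of 0.28 and 0.18 in MstTg against wt. Protein identities and the ratio of Slc25a22 to Slc25a18 were not run.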
